A study of Mus musculus with 2 samples.

Results

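Nuclei that met a transcript rule for parenchymal astrocytes were examined in single-nucleus RNA-seq of the mouse cerebellum at postnatal day 1. The study sought to learn how the neonatal cerebellum differs after loss of Tox3 from its neural cells. It had 2 libraries, each made from 12 pooled frozen cerebella. The control library came from littermates without Cre, whose genotype the labels give as Tox3f/f in one field and as Tox3f/f or Tox3f/+ in another. The other library came from Nestin-Cre;Tox3f/f mice (cKO), in which Cre is driven by the Nestin promoter of neural precursors, so that astroglia and neurons both derive from recombining cells and floxed alleles were present in both groups. A nucleus was a member when it had at least 1000 genes detected and at most 5% mitochondrial unique molecular identifiers (UMIs), at least 2 UMIs of Slc1a3, and no UMI of Pdgfra or Sox10. Its UMIs of Slc6a11, Aqp4 and Itih3 also had to sum to at least 2 and to more than its UMIs of Gdf10 and Tnc. The rule found 39 nuclei in control and 123 in the cKO-labelled library, 162 of the 10033 nuclei that passed the filters and of 11803 barcodes. They were selected on measured UMIs and are called parenchymal astrocyte-like nuclei, so the levels of the rule genes describe the choice and are no finding.

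Astrocytes take up glutamate and GABA, buffer potassium and bicarbonate, couple to each other through gap junctions and supply lipids to neurons. The cerebellum holds a specialised astroglial cell, the Bergmann glia, whose fibres guide granule cells and wrap Purkinje cell synapses, and less specialised parenchymal astrocytes of the granular layer, the white matter and the deep nuclei. Both derive from Nestin-expressing precursors and share Slc1a3, a glutamate transporter, while the GABA transporter Slc6a11 is known to mark the parenchymal kind. Aqp4 is a water channel of astrocyte endfeet.

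The control library held 4857 barcodes and 22325208 UMIs, and the cKO-labelled library 6946 barcodes and 33726533 UMIs. The filters kept 3816 control nuclei (78.6%) with a median of 4711 UMIs, and 6217 nuclei (89.5%) with a median of 4495 UMIs. The libraries shared 9 barcodes. Both pools mixed sexes, with Xist UMIs in 56.8% and 69.4% of nuclei. As each group had 1 library, there was no replicate, no test and no p-value. All values in parentheses after a level, a share or a ratio are exact 95% intervals that cover counting error only, not the spread between animals or libraries.

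Members yielded 226936 UMIs in control and 594942 in the cKO-labelled library. Control members held from 2377 to 23456 UMIs, with a median of 4620, and those of the cKO-labelled library from 1943 to 21982, with a median of 4016. Many members sat close to the limit of the rule, and more so in control. The sum of Slc6a11, Aqp4 and Itih3 was exactly 2 in 10 control members (25.6%) and in 18 of the other library (14.6%), with a median of 4 and 6 and a maximum of 20 and 19. Just outside, 16 and 30 nuclei had a sum of 1 and otherwise met the rule, and 4 and 22 were tied with their Gdf10 and Tnc UMIs. Because of this, results below are also given for members with a sum of at least 4, which were 21 and 92 nuclei.

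A share of the members also carried RNA typical of neurons. The summed UMIs of 9 neuronal genes (Rbfox3, Snap25, Syt1, Stmn2, Myt1l, Nefm, Nefl, Tubb3 and Elavl4) made up from 0 to 0.670% of a control member's UMIs, with a median of 0.0599%, and from 0 to 0.476% in the cKO-labelled library, with a median of 0.0501%. This share was above 0.1%, a limit set after the data had been seen, in 14 control members (35.9%) and 38 of the other library (30.9%). These nuclei were deeper, with medians of 5824.5 and 5219 UMIs against 4211 and 3771 in the remaining members. Scrublet, a doublet caller, ranked 5 control members and 17 members of the cKO-labelled library among its doublets, and 5 and 16 of those carried neuronal RNA. All 9 neuronal genes were detected in members of both libraries, at a sum of 1785 UMIs per 1000000 (CPM) in control and 1377 CPM in the cKO-labelled library. The part of neuronal RNA in each result was not tested beyond repeating the result without these nuclei, which left 25 control members and 85 of the other library.

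**Figure D1:**
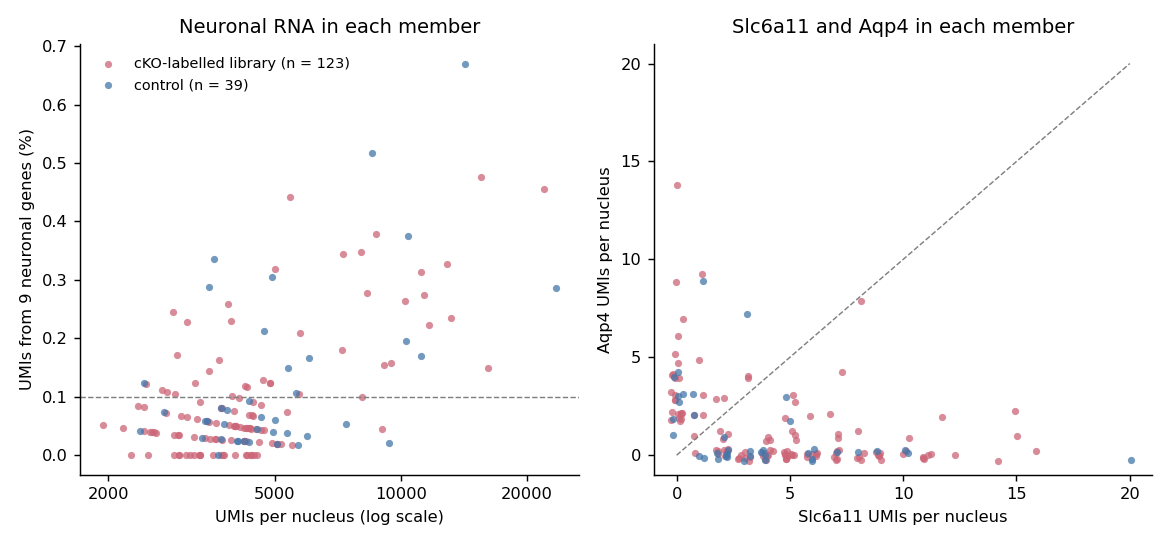
Each point is 1 parenchymal astrocyte-like nucleus, blue for the 39 of control and red for the 123 of the cKO-labelled library. Left, total UMIs (log scale) against the percentage of UMIs from 9 neuronal genes, with the limit of 0.1% dashed, where points above the line reach 0.670%; right, Slc6a11 against Aqp4 UMIs, jittered by up to 0.3 UMIs, where the dashed line marks equal counts and 7 and 33 nuclei hold UMIs of both genes.

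The label was checked against its markers. Slc6a11 (chr6:114131241-114249952, plus strand, GRCm38), which the rule used, had a UMI in 82.1% of control members and 81.3% of those of the cKO-labelled library. Of the markers that the rule did not use, Gja1 (chr10:56377330-56402513, plus strand), the gap junction protein connexin 43, had a UMI in 43.6% and 56.1% of members. Slc4a4 (chr5:88886818-89239653, plus strand), the sodium bicarbonate cotransporter, had one in 79.5% and 89.4%. Background was read from microglia-like nuclei, which are not of the neural lineage and had medians of 3207 and 2806 UMIs. Among them 2.13% and 2.21% had a Gja1 UMI and 2.13% and 9.56% a Slc4a4 UMI, and the shares of members with these 2 genes stood far above them. Aqp4, which the rule used as well, had a UMI in 35.9% and 45.5% of members and in 46.2% and 50.07% of Bergmann glia-like nuclei. Detection of Aqp4 thus did not set members apart from those nuclei. Connexin 30 (Gjb6) had 0 UMIs in members of both libraries, where 3 UMIs would be 13.2 CPM and 5.04 CPM. Pdgfra and Sox10 were at 0 by the rule. With Cspg4, Olig1 and Olig2, these oligodendrocyte lineage markers still summed to 14 and 31 UMIs, with a UMI in 23.1% and 19.5% of members. That was 61.7 and 52.1 CPM, against 19.9 and 21.5 CPM in Bergmann glia-like and 11.1 and 18.8 CPM in microglia-like nuclei. The 4 endothelial markers summed to 0 and 5 UMIs. Atoh1, the factor that defines granule cell precursors, had 0 UMIs in members of both libraries, where 3 members would be 7.69% and 2.44%.

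To describe what else set these nuclei apart, they were compared with Bergmann glia-like nuclei of the same library. The latter met the mirrored rule, with at least 2 UMIs of Gdf10 and Tnc and more of these than of the other 3 genes, and numbered 305 and 727. The genes named here were ranked by the interval bound of this ratio nearest 1 in the same nuclei. Their values and intervals are therefore a description. Kcnd2, a voltage-gated potassium channel of the A type, stood at 2935 CPM in control members against 641 CPM in Bergmann glia-like nuclei, and at 3143 against 754 CPM in the cKO-labelled library. The ratios were 4.58 (4.15 to 5.05) and 4.17 (3.93 to 4.43). Grm5, the metabotropic glutamate receptor of young astrocytes, was 4.10-fold and 3.44-fold higher in members. Gabbr2, a subunit of the GABA-B receptor, was 4.67-fold and 3.62-fold higher.

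Other genes in this group were Gpc5, a heparan sulphate proteoglycan, at 7.54-fold and 6.53-fold, the zinc finger factor Sall3 at 7.54-fold and 10.0-fold, and the ubiquitin ligase Trim9 at 5.67-fold and 5.07-fold. Apoe, the main lipoprotein of astrocytes, was 3.11-fold and 2.74-fold higher. Fgfr3, a receptor for fibroblast growth factors that astrocytes express, was named after its values had been seen and was 5.48-fold and 11.9-fold higher. Among the markers, Gja1 was 3.23-fold and 4.15-fold and Slc4a4 1.92-fold and 2.99-fold higher than in Bergmann glia-like nuclei. Not every astroglial gene leaned this way. Aldh1l1, a pan-astrocyte folate enzyme, stood at 0.62 and 0.75 of the Bergmann glia level, and the transcription factors Nfia at 1.06 and 1.09 and Nfib at 1.11 and 1.04.

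Gria1 (chr11:57011387-57330244, plus strand), which encodes an AMPA receptor subunit that Bergmann glia are known for, headed the genes lower in members. It stood at 234 CPM in control members against 1898 CPM in Bergmann glia-like nuclei, and at 131 against 1288 CPM in the cKO-labelled library. These were 0.12 (0.09 to 0.16) and 0.10 (0.08 to 0.13) of the Bergmann glia level. Between the libraries, Gria1 in members had a ratio of cKO-labelled to control of 0.56 (0.39 to 0.81), and of 0.12 (0.05 to 0.24) without members with neuronal RNA. Shroom3, an actin regulator of cell shape, was at 0.23 and 0.12, the chloride channel Ano1 at 0.19 and 0.31, the growth factor Pdgfc at 0.29 and 0.27 and the receptor Calcrl at 0.19 and 0.30 of the Bergmann glia level. These genes too were picked by this ratio in these nuclei.

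**Figure D2:**
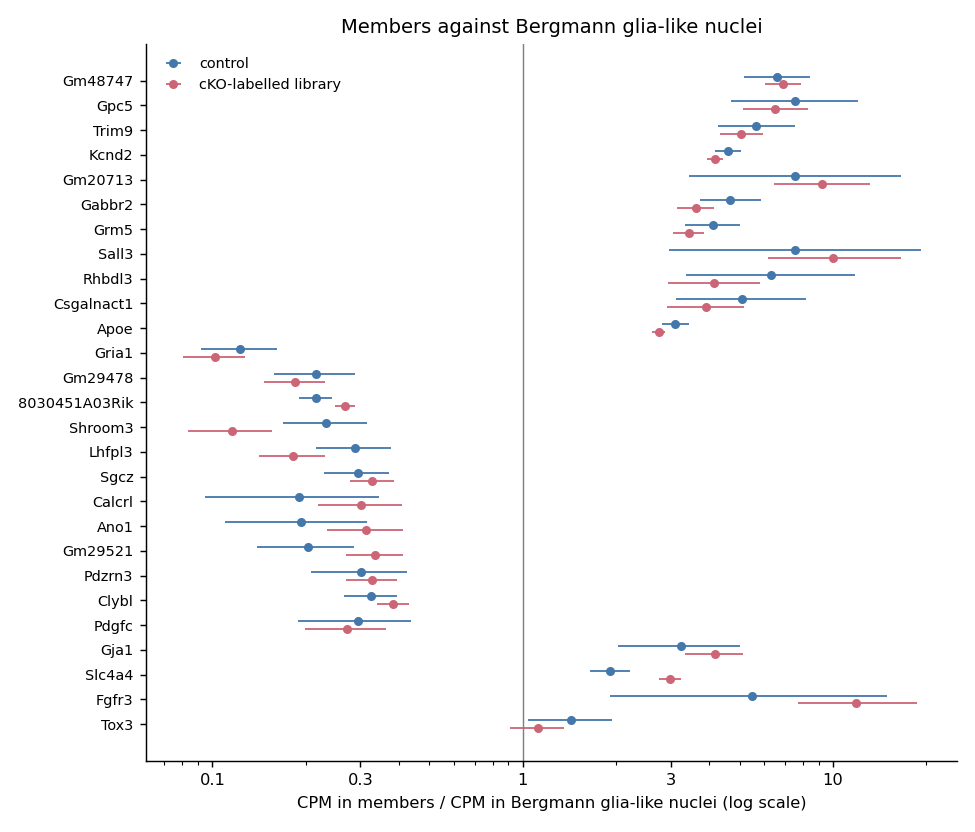
CPM in parenchymal astrocyte-like nuclei divided by CPM in Bergmann glia-like nuclei (log scale), in control (blue) and in the cKO-labelled library (red), for 11 of the 12 genes highest and the 12 lowest by this ratio and 4 further genes. Points are ratios and bars exact 95% counting intervals. The first 11 genes, among them Kcnd2 at 4.58 and 4.17, lie right of 1 in both libraries and the next 12, led by Gria1 at 0.12 and 0.10, lie left of it.

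Members were also split by their leading rule gene. Slc6a11 was the more abundant of the 2 main rule genes in 28 control members (71.8%) and 89 of the cKO-labelled library (72.4%), and Aqp4 in 11 and 32. UMIs of both were found in 7 and 33 nuclei. This split rests on the rule genes, so the genes that go with it are given as a description. They were chosen after the data had been seen. Of the 8 that went with Slc6a11, Cntn5, an adhesion protein of the contactin family, had 53 UMIs in the Slc6a11-led and 0 in the Aqp4-led control members. In the cKO-labelled library it had 190 and 8 UMIs, a ratio of 7.97 (3.96 to 18.7). Grm5 was 7.25-fold and 8.33-fold higher in Slc6a11-led members and Kcnd2 4.23-fold and 4.71-fold. The growth factor homologue Fgf14 followed at 4.52-fold and 3.84-fold, and Dab1, an adaptor of reelin signalling, at 7.20-fold and 3.91-fold. Xylt1, an enzyme that starts the sugar chains of proteoglycans, was 10.7-fold and 5.78-fold higher, Trim9 5.69-fold and 5.11-fold, and the long noncoding RNA 4930445B16Rik 9.09-fold and 4.41-fold. Kcnd2 and Grm5 were also among the genes highest against Bergmann glia-like nuclei, and within the members their level lay mostly in the Slc6a11-led nuclei.

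Of the 8 genes that went with Aqp4, Vcan, the matrix proteoglycan versican, stood at 1535 CPM in Aqp4-led and 450 CPM in Slc6a11-led control members, and at 1699 and 402 CPM in the cKO-labelled library. Its ratios of Slc6a11-led to Aqp4-led members were 0.29 (0.21 to 0.40) and 0.24 (0.19 to 0.29). Scube2, a secreted protein that helps to release Hedgehog ligands, had ratios of 0.14 and 0.13, the matrix protein Sned1 of 0.11 and 0.19, and Pdzrn3, a ubiquitin ligase, of 0.16 and 0.08. Greb1l was at 0.20 and 0.27, the kinase Stk10 at 0.13 and 0.15 and Gm47520 at 0.21 and 0.10. Pdzrn3 and the long noncoding RNA Gm29478 were also among the 12 genes lowest in all members against Bergmann glia-like nuclei. Whether the Aqp4-led members are parenchymal astrocytes was not tested. Fgfr3 had a UMI in 14.3% and 40.4% of Slc6a11-led members and in 9.09% and 6.25% of Aqp4-led ones. Neuronal RNA above 0.1% was found in 10 of 28 and 24 of 89 Slc6a11-led and in 4 of 11 and 14 of 32 Aqp4-led members.

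**Figure D3:**
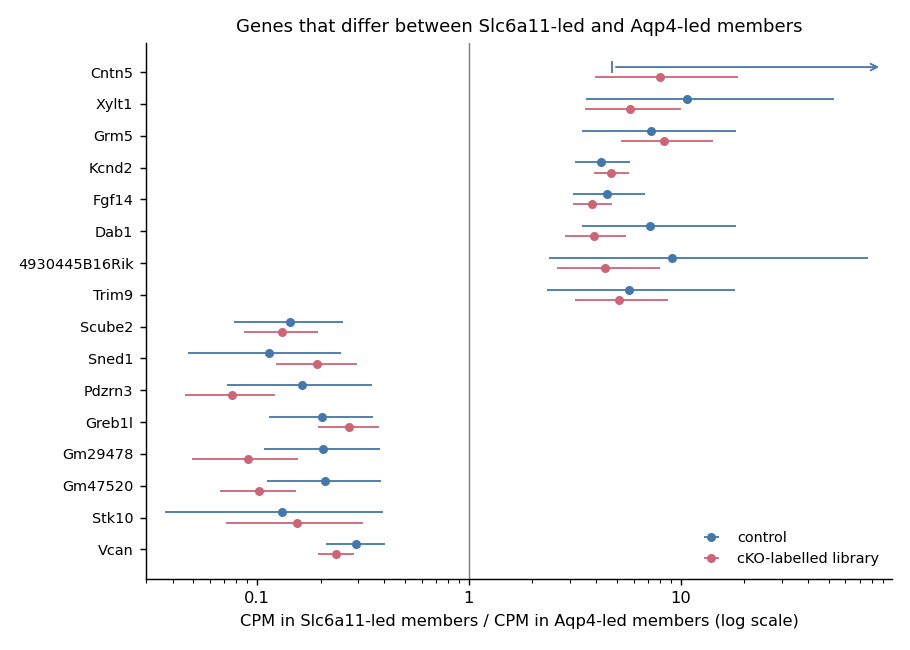
CPM in Slc6a11-led members divided by CPM in Aqp4-led members (log scale), for the 8 genes highest and 8 lowest by this ratio in both libraries, control in blue (28 against 11 nuclei) and the cKO-labelled library in red (89 against 32). Points are ratios and bars exact 95% counting intervals. The control value of Cntn5, with 0 UMIs in Aqp4-led members, is an arrow from its lower limit of 4.76, and Vcan closes the list at 0.29 and 0.24.

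The number of members was then compared between the libraries. They made up 1.02% (0.728 to 1.39) of filtered control nuclei and 1.98% (1.65 to 2.36) of those of the cKO-labelled library, a ratio of 1.94 (1.34 to 2.85). Bergmann glia-like nuclei were also more frequent in the cKO-labelled library, at 7.99% and 11.7%, a ratio of 1.46 (1.28 to 1.68). Among astroglial nuclei, the sum of both classes, members were 11.3% and 14.5%, a ratio of 1.28 (0.884 to 1.88). With granule lineage nuclei taken out of the total, the ratio was 1.38 (0.956 to 2.03). The interval of the share thus lay above 1 only over all nuclei, and with both these denominators it spanned 1. Without members with neuronal RNA the ratio over all nuclei was 2.09 (1.32 to 3.40). These are shares of captured nuclei, and more astrocytes cannot be told apart from fewer nuclei of other types.

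The targeted gene was examined in the members first. Tox3 (chr8:90247040-90348343, minus strand), a DNA-binding protein of the HMG-box family, had 51 UMIs in 20 of 39 control members and 117 UMIs in 59 of 123 members of the cKO-labelled library. Its level was 225 CPM and 197 CPM, a ratio of 0.88 (0.62 to 1.24), and 0.67 (0.43 to 1.06) without members with neuronal RNA. A UMI was found in 51.3% and 48.0% of members, against 6.38% and 6.62% of microglia-like nuclei. Tox3 transcripts were therefore present well above background in both libraries, and the counts do not show that the cKO-labelled library had lost the transcript. Reads counted over a gene need not come from the deleted part, so these counts do not check the deletion. By RT-qPCR of whole cerebella of this genotype at the same age, the study reported that Tox3 was almost completely deleted. Tox and Tox4, its paralogs, had ratios of 1.02 (0.74 to 1.44) and 1.20 (0.66 to 2.30). Between the sets, Tox3 was at 207 and 159 CPM in Slc6a11-led members and at 276 and 318 CPM in Aqp4-led members.

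Across genes, those of astroglial identity were higher in members of the cKO-labelled library. Of a list of 33 such genes, 26 had at least 20 UMIs over the members of both libraries. Of these, 22 were higher and 4 lower in the cKO-labelled library, and 13 were higher and 0 lower by 1.5-fold or more, while 16.5% of all 7080 genes measured at that depth were higher and 12.2% lower by that size. The median log2 ratio was 0.58, against 0.02 over all genes. Without members with neuronal RNA, 12 of 24 genes were 1.5-fold higher and 1 was lower, with a median of 0.59, against a background of 16.7% higher and 15.2% lower. In Bergmann glia-like nuclei the median of the list was 0.01, over all filtered nuclei other than members it was 0.16, and the difference between the classes was not tested. With the stricter marker sum of at least 4 the median was 0.20, the lowest of 13 alternatives, all of which were above 0. The share of members near the limit of the rule, larger in control, moved with this result, and its part in the result was not tested beyond that. The 6 rule genes measured were all higher too, with a ratio of their sums of 1.32 (1.20 to 1.45). Members were chosen on astroglial UMIs, and the list with earlier results of these data known. The shift is therefore a description and cannot be told apart from the choice of nuclei.

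Cst3, the protease inhibitor cystatin C, had 46 UMIs in control and 262 in the cKO-labelled library, or 203 and 440 CPM, a ratio of 2.17 (1.58 to 3.04). It was 2.23 without members with neuronal RNA and 2.05 with the stricter marker sum, and 1.32 in Bergmann glia-like nuclei. Fgfr3 (chr5:33721674-33737068, plus strand) had 8 UMIs in 5 control members and 67 UMIs in 39 members of the cKO-labelled library. Its levels of 35.3 and 113 CPM gave a ratio of 3.19 (1.53 to 7.70), which was 2.38 without neuronal RNA and 2.90 with the stricter sum. At a common depth of 1500 UMIs, 6.19% and 16.5% of members would show a Fgfr3 UMI, and none of the microglia-like nuclei did. The share of members with a Fgfr3 UMI was thus also larger in the cKO-labelled library, with only 5 control members behind the comparison.

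Ptprz1, a receptor phosphatase of glial precursors, had 452 and 1609 UMIs, or 1992 and 2704 CPM, a ratio of 1.36 (1.22 to 1.51), but 1.07 with the stricter marker sum. Ntrk2, the receptor of brain-derived neurotrophic factor, had a ratio of 1.22 (1.03 to 1.45), and Pla2g7, a phospholipase, of 1.32 (1.05 to 1.68). Bcan, the matrix proteoglycan brevican, had a ratio of 1.55 (1.07 to 2.28), the progestin receptor Paqr8 of 1.53 (1.15 to 2.05) and Dbi, a binding protein of acyl-CoA, of 1.63 (1.05 to 2.63). At the other end, Mfge8, a bridge to dying cells, was at 1.01 (0.76 to 1.35) and the fatty acid binding protein Fabp7 at 1.15 (0.94 to 1.41). Vim, an intermediate filament of immature and reactive glia, was lowest at 0.70 (0.41 to 1.21), and at 0.40 (0.18 to 0.91) without neuronal RNA. Vim and Fabp7, both genes of immature glia, were thus not among the clearly higher ones.

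**Figure D4:**
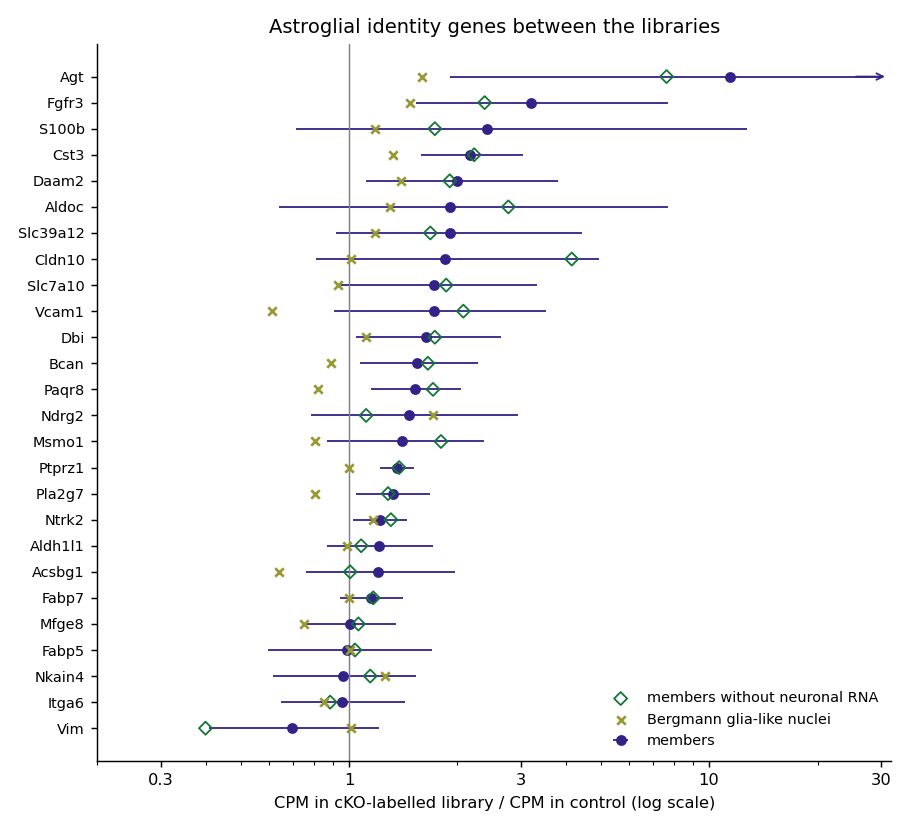
CPM in the cKO-labelled library divided by CPM in control (log scale) for the 26 astroglial identity genes with at least 20 UMIs. Filled points with exact 95% counting intervals are all members, diamonds the members without neuronal RNA and crosses Bergmann glia-like nuclei, and an arrow marks an interval that runs past the axis. Most filled points lie right of 1, with Cst3 at 2.17 and Fgfr3 at 3.19, while the crosses scatter around 1.

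Transporters and channels gave a smaller shift. Of 22 measured genes, 19 were higher and 3 lower, with 7 higher and 1 lower by 1.5-fold or more and a median log2 ratio of 0.29. The background for this count and for those of the lists that follow is the same 16.5% of all genes higher and 12.2% lower. The median was 0.43 without neuronal RNA, 0.00 in Bergmann glia-like nuclei and 0.17 over all filtered nuclei other than members. Gja1 had 30 UMIs in 17 control members and 149 UMIs in 69 members of the other library, or 132 and 250 CPM, a ratio of 1.89 (1.27 to 2.91). It was 1.57 with the stricter marker sum and 4.58 in nuclei thinned to 2000 UMIs. Slc4a4, with 226 and 840 UMIs, or 996 and 1412 CPM, had a ratio of 1.42 (1.22 to 1.65), but 1.14 with the stricter sum. Slc1a4, which carries serine and alanine, had a ratio of 2.04 (1.33 to 3.23) and Hepacam, the adhesion protein that anchors chloride channels, of 1.63 (1.15 to 2.36). By contrast Slc1a2, the main glutamate transporter of mature astrocytes, was at 1.14 (0.93 to 1.41). Slc38a1, a glutamine transporter, was lower, at 0.66 (0.50 to 0.89), 0.45 without neuronal RNA and 1.06 in nuclei thinned to 2000 UMIs.

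For Gja1, Slc4a4 and Sparcl1 the interval of the ratio lay above 1 in Slc6a11-led members and spanned 1 in Aqp4-led members. Gja1 was at 136 CPM in control and 300 CPM in the cKO-labelled library in Slc6a11-led members, a ratio of 2.20 (1.41 to 3.59). In Aqp4-led members it had 7 and 16 UMIs, or 121 and 108 CPM, a ratio of 0.90 (0.35 to 2.58). That interval also held the ratio of Slc6a11-led members. Slc4a4 had a ratio of 1.56 (1.32 to 1.85) in the former and 0.85 (0.60 to 1.22) in the latter, and Sparcl1, a secreted synapse-promoting protein, of 1.64 (1.40 to 1.93) and 1.04 (0.78 to 1.42). Cst3 and Ptprz1 were higher in both sets, with ratios of 2.30 and 1.88 for Cst3 and of 1.36 and 1.36 for Ptprz1. The median log2 ratio of the identity list was 0.49 over 25 genes in Slc6a11-led and 0.46 over 13 genes in Aqp4-led members. For transporters and channels it was 0.36 over 21 genes and 0.16 over 11 genes. Only 11 control nuclei were Aqp4-led, the lists differ in the genes measured, and the difference between the sets was not tested.

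Lipid genes were mixed, with 21 of 31 measured genes of cholesterol and lipid metabolism higher and 10 lower, 6 and 1 of them by 1.5-fold or more, and a median log2 ratio of 0.12 that ranged from -0.01 to 0.32 over 13 alternatives. Apoe had 563 UMIs in control and 2257 in the cKO-labelled library, or 2481 and 3794 CPM, a ratio of 1.53 (1.39 to 1.68). Its ratio was also 1.73 in Bergmann glia-like nuclei, and microglia-like nuclei, which express it strongly, had a UMI in 93.6% and 97.1%. The desaturase Scd2 had a ratio of 1.41 (1.14 to 1.76). Cyp51, a demethylase of cholesterol synthesis, was at 1.06 (0.74 to 1.55) and Srebf2, the factor that controls that pathway, at 0.76 (0.52 to 1.14), and both intervals spanned 1.

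Secreted and matrix factors had a median log2 ratio of 0.29, with 16 of 23 measured genes higher and 7 lower, of which 7 and 4 by 1.5-fold or more, and the median ranged from 0.05 to 0.54 over 13 alternatives. It was 0.06 in Bergmann glia-like nuclei and 0.26 over all filtered nuclei other than members, where 31 of 42 genes were higher. The shift was thus not particular to members. Sparcl1 had 258 and 1018 UMIs, or 1137 and 1711 CPM, a ratio of 1.51 (1.31 to 1.73). The glypican Gpc6, a signal for synapse formation, was at 1.43 (1.10 to 1.88) and Ncan, the proteoglycan neurocan, at 1.27 (0.99 to 1.65). Col4a5, a basement membrane collagen, and Ntn1, the guidance cue netrin 1, were named after their values had been seen. Col4a5 had 7 and 55 UMIs, a ratio of 3.00 (1.36 to 7.80). Ntn1 had 7 and 48 UMIs, a ratio of 2.62 (1.18 to 6.85), against 0.69 in Bergmann glia-like nuclei. Slit3, another guidance cue, was lower at 0.44 (0.30 to 0.64), but its ratio was 0.09 without Scrublet doublets and 0.90 with the stricter marker sum. Nrg1, a ligand of ErbB receptors, was at 0.49 (0.43 to 0.55), and at 1.16 (0.77 to 1.78) without members with neuronal RNA. Both low values thus depended on which nuclei were kept.

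Transcription factors of astroglia showed no common shift. Of 25 measured, 9 were higher and 16 lower, 3 and 4 of them by 1.5-fold or more, and the median log2 ratio was -0.04, or 0.05 with median-of-ratios scaling. Nfia, Nfib and Sox5, factors that start and maintain gliogenesis, were at 0.97 (0.87 to 1.08), 0.91 (0.83 to 1.01) and 0.97 (0.82 to 1.16). Npas3 was highest among the abundant ones, with 3411 and 4253 CPM, a ratio of 1.25 (1.15 to 1.35). Zic4, a factor of cerebellar progenitors, was lowest at 0.64 (0.43 to 0.94).

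Signalling lists were short at this depth. In the Sonic hedgehog pathway, which Purkinje cells activate in their neighbours, 7 genes were measured, of which 3 were higher and 4 lower, 1 and 0 of them by 1.5-fold or more, with a median log2 ratio of -0.06, or 0.04 with median-of-ratios scaling. Over all filtered nuclei other than members, 3 of 16 genes of the list were higher and 13 lower. The median there was -0.38, against -0.01 over all genes, so lower values of this list were not particular to members. Ptch1, the receptor and a target of the pathway, had 113 and 229 UMIs, or 498 and 385 CPM, a ratio of 0.77 (0.61 to 0.98). It was 0.70 (0.53 to 0.92) without neuronal RNA, 0.39 (0.21 to 0.74) in Aqp4-led and 0.86 (0.67 to 1.12) in Slc6a11-led members, and 1.22 in Bergmann glia-like nuclei. Gli2 and Gli3, its effectors, were named after their values had been seen and were at 0.70 (0.45 to 1.12) and 0.72 (0.49 to 1.09). Smo, the transducer, had 8 and 55 UMIs, a ratio of 2.62 (1.24 to 6.38). The intervals of Gli2 and Gli3 spanned 1.

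In the fibroblast growth factor pathway, 8 of 11 measured genes were higher and 3 lower, 4 and 1 of them by 1.5-fold or more, and the median log2 ratio was 0.32, against -0.21 in Bergmann glia-like nuclei. The median was 0.17 without neuronal RNA, 0.15 without Scrublet doublets and 0.13 with the stricter marker sum. Besides Fgfr3, the receptor Fgfr2 was at 1.25 (1.07 to 1.46) and Fgfr1 at 1.01 (0.71 to 1.47). Of the transcription factors that this pathway induces, named after their values had been seen, Etv4 had 10 and 54 UMIs, a ratio of 2.06 (1.04 to 4.54), and Etv5 19 and 79 UMIs, a ratio of 1.59 (0.95 to 2.77). In Bergmann glia-like nuclei both were lower in the cKO-labelled library, at 0.62 and 0.74. The inhibitor Spred1 was at 0.62 (0.43 to 0.90) in members. For Notch, which keeps glial precursors from becoming neurons, 7 of 11 genes were higher and 4 lower, 2 and 0 by 1.5-fold or more, with a median of 0.12, which was -0.05 without neuronal RNA, and Maml2, a coactivator, at 1.21 (1.04 to 1.40). Of 27 genes of reactive astrocytes 4 were measured, with a median of -0.04 (0.05 with median-of-ratios scaling, and -0.95 over 3 genes without neuronal RNA), and none of 26 immediate early genes reached 20 UMIs. Of 13 genes that the study followed in the granule lineage, 6 were measured, with a median of 0.14, which was -0.02 without neuronal RNA. Ribosomal protein genes were lower in members, with a median of -0.25 over 85 genes, and likewise in Bergmann glia-like nuclei, at -0.33.

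**Figure D5:**
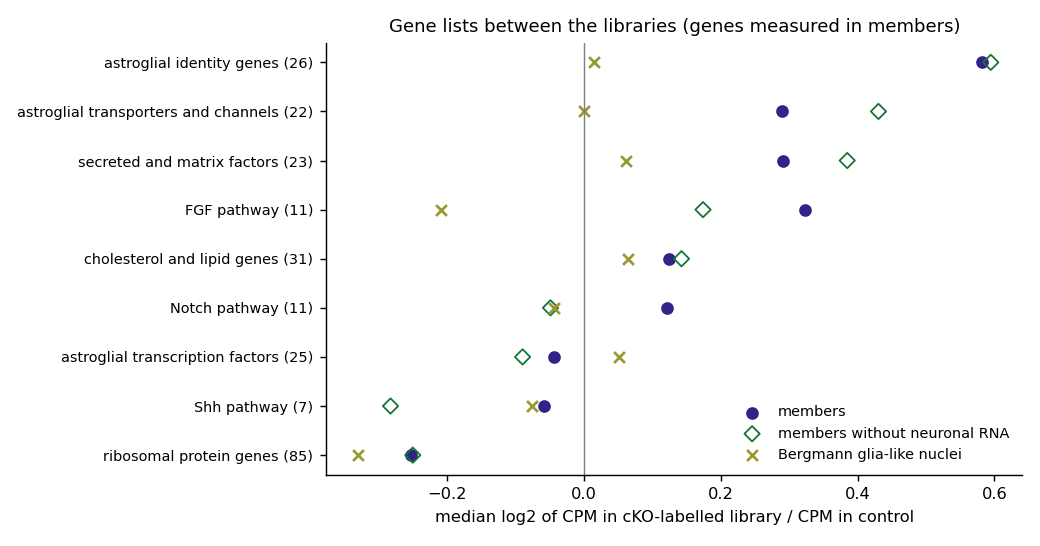
Median log2 ratio of CPM in the cKO-labelled library to CPM in control for 9 gene lists, with the number of genes measured in members in parentheses. Circles are all members, diamonds members without neuronal RNA and crosses Bergmann glia-like nuclei. The identity list is farthest right at 0.58 in members and near 0 in Bergmann glia-like nuclei, and ribosomal protein genes lie left of 0 in both.

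Over single genes with at least 100 UMIs, 94 of 1661 (5.66%) were 1.5-fold or more higher and 108 (6.5%) were lower in members of the cKO-labelled library. With median-of-ratios scaling, which raises every ratio by the same factor, the counts were 137 higher and 73 lower. Of the 94, 91 were still past that size without the single nucleus richest in the gene in each library, and 53 without members with neuronal RNA. Of the 108, 67 and 49 were. In the lower genes the richest nucleus alone held a median of 24.2% of the control UMIs, against 6.21% of the UMIs of the cKO-labelled library in the higher genes. Of the 12 highest and 12 lowest ranked genes, 8 changed direction without members with neuronal RNA, and 2 more had no control UMI left. Ebf1, a transcription factor also found in Purkinje cells, had 39 and 412 UMIs, a ratio of 4.03 (2.90 to 5.75), with 186 UMIs in 1 nucleus, and its ratio without neuronal RNA was 0.95 (0.41 to 2.47). Cdh9, a cadherin, had 8 and 101 UMIs, 95 of them in 1 nucleus, and without the richest nucleus its ratio was 0.73. Cadps2, a vesicle priming protein of granule cells, had 172 and 111 UMIs, a ratio of 0.25 (0.19 to 0.31), and 0.74 (0.30 to 1.97) without neuronal RNA. Cntnap2, an axonal adhesion protein, was at 0.46 (0.40 to 0.53), and at 1.11 (0.61 to 2.13) without neuronal RNA.

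Marker lists of neurons differed between the libraries in the members as well. Summed Purkinje cell markers were at 2098 CPM in control and 2990 CPM in the cKO-labelled library, with Ppp1r17 at 0 UMIs in both, and GABAergic markers at 128 and 249 CPM, with Ptf1a at 0 in both. Granule lineage markers were at 529 and 383 CPM, with Atoh1 at 0 in both. The 4 markers of glutamatergic nuclei were at 189 and 118 CPM, with Tbr1 and Lhx9 at 0 in control, and the 2 unipolar brush cell markers at 24 and 7 UMIs. Without members with neuronal RNA, the sums were 2258 and 2751 CPM for Purkinje cell and 62.0 and 61.3 CPM for GABAergic markers. Granule lineage markers were then at 275 and 209 CPM, those of glutamatergic nuclei at 221 and 138 CPM, and unipolar brush cell markers at 1 and 1 UMIs. In Bergmann glia-like nuclei the Purkinje cell markers were at 2293 and 2648 CPM. A UMI of this list was found in 100% of members of both libraries and in 98.7% and 98.5% of Bergmann glia-like nuclei. Among microglia-like nuclei 38.3% and 52.9% had one. The Purkinje cell sum, which was not lower in control without members with neuronal RNA, thus cannot be read as RNA of Purkinje cells alone. The part of neurons in the ranked genes was not tested further.

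Mgat5 and Rab34, both among the ranked genes, also differed in the share of members with the transcript. Mgat5, an enzyme that branches sugar chains on glycoproteins, had 74 UMIs in 22 of 39 control members and 69 UMIs in 36 of 123 members of the other library, a ratio of 0.36 (0.25 to 0.50). It was 0.42 without neuronal RNA, 0.22 in nuclei thinned to 2000 UMIs and 1.19 in Bergmann glia-like nuclei. Of the control UMIs, 20 came from 1 nucleus, and without the richest nuclei the ratio was 0.41. Rab34, a small GTPase of primary cilia, had 3 UMIs in 3 control members and 47 UMIs in 39 members of the cKO-labelled library, a ratio of 5.98 (1.92 to 30.02), and 3.12 (0.96 to 16.05) without neuronal RNA. In Bergmann glia-like nuclei it was at 1.11. In nuclei thinned to 2000 UMIs, where 16 control nuclei and 89 of the cKO-labelled library met the rule, it was at 1.08. At a common depth of 1500 UMIs, a UMI would be found in 28.1% and 12.8% of members for Mgat5 and in 3.03% and 12.3% for Rab34.

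Proliferation genes were detected in a minority of members. A UMI of Mki67 or Top2a, which dividing cells express, was found in 8 of 39 control members (20.5%, 9.30 to 36.5) and in 17 of 123 members of the cKO-labelled library (13.8%, 8.26 to 21.2), and the intervals overlapped. In Bergmann glia-like nuclei the shares were 33.8% and 24.9%, and over all filtered nuclei 28.0% and 15.2%. At a common depth of 1500 UMIs the shares became 7.54% and 5.44% in members, 17.4% and 14.5% in Bergmann glia-like nuclei and 15.0% and 8.05% over all nuclei. In both libraries members had the lowest of these shares. Before thinning, however, the interval of control members held the control shares of Bergmann glia-like nuclei and of all nuclei. That of members of the cKO-labelled library held the share over all nuclei. Microglia-like nuclei, used as background elsewhere, had such a UMI in 44.7% and 33.8% and could not serve here. No background was computed from other nuclei, such as postmitotic neurons. Of the G2 and M phase genes, 15 were measured in members, 9 higher and 6 lower in the cKO-labelled library, 4 and 2 of them by 1.5-fold or more. Their median log2 ratio of 0.25 ranged from -0.31 to 1.05 over the alternatives. For S phase genes 6 of 10 were higher and 4 lower, 3 and 2 of them by 1.5-fold or more. Their median of 0.14 ranged from -0.12 to 0.80 over 10 alternatives. Over all filtered nuclei other than members the medians were -0.69 for G2 and M phase and -0.59 for S phase genes.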

How the data were processed

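Per the labels and the study's methods, nuclei were captured with a 10x Genomics 3′ kit and the authors counted reads with Cell Ranger 7.0.1 on mm10 (GRCm38). The deposited values are raw UMI counts per gene and nucleus for 32285 genes, not normalised or corrected for free RNA. Whether intronic reads were counted is not given in the sources used here, and doublets were not removed except as an alternative. For 40 symbols shared by several genes the first was used.

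UMIs were summed over members per library and divided by their total (CPM, per 1000000). Intervals are exact at 95%: Poisson for sums, conditional binomial for ratios and Clopper-Pearson for shares. They cover counting error only, and depth limited them to genes with at least 20 UMIs in lists, 50 in rankings and 100 in counts past 1.5-fold. With 1 library per group there was no test. A count of 0 was set against 3 UMIs. Shares at a common depth are the mean over all thinnings to 1500 UMIs. Coordinates are from the GENCODE annotation of GRCm38. Computations used Python 3.11.15, numpy 2.4.6, scipy 1.17.1, pandas 2.3.3 and scanpy 1.11.5 (Scrublet, top 0.8% per 1000 barcodes), and the interval script was tested on simulated data.

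The members and gene lists were chosen with earlier results of these data known. Genes were named when they belonged to the rule or its markers, to the Tox family, or to the 3 highest or lowest with at least 100 UMIs of a list. The 12 highest and 12 lowest by the interval bound nearest 1, between the libraries and against Bergmann glia-like nuclei, could also be named. Others were named after their values were seen: Fgfr3, Smo, Gli2, Gli3, Etv4, Etv5, Col4a5, Ntn1, Vim, Gjb6, Slit3, genes given as near 1, and those of the Slc6a11-led and Aqp4-led sets. Microglia-like nuclei had at least 3 UMIs of Csf1r, C1qa, C1qb and Mrc1 and at most 1 of Slc1a3. A rule that added P2ry12 and Cx3cr1 was dropped because 70.2% and 51.9% of its nuclei had Rbfox3. The 13 alternatives covered scaling, filters, depth, doublets, sex, the rule, neuronal RNA and single nuclei. The last pair was added after the data had been seen. A few genes that the naming rule covered are not reported here.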

Additional observations from a re-analysis of the deposited data

How the results depend on the processing

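No paired analysis was possible because each group was 1 library, and for the same reason no replicate could be left out. The ratio of the member share was above 1 in the 9 alternatives that bear on it. Over 13 alternatives the identity and transporter medians stayed above 0, while the G2 and M phase median changed sign. The cause of each change below was not tested.

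In nuclei thinned to 2000 UMIs (16 control members and 89 of the cKO-labelled library) the share ratio was 3.42, 37 genes were 1.5-fold higher and 11 lower, the identity median was 0.43 and the G2 and M phase median 1.05. Mki67 or Top2a was found in 6.25% and 4.49% of members, and the ratios of Ebf1, Brinp3, Cntnap5a, Grik1 and Slc38a1 became 0.45, 0.44, 0.54, 4.85 and 1.06. With only nuclei that had a Y-linked and no Xist UMI (10 and 32) the share ratio was 2.97, 35 genes were higher and 24 lower, the Tox3 ratio was 1.72, the transporter median 0.48, the G2 and M phase median 0.57 and the share with Mki67 or Top2a in the cKO-labelled library 6.25%. The ratios of Cadps2, Grik1, Cntnap2, Usp29, Nphs1, Zic4, Slit3 and Kctd8 became 1.54, 1.42, 1.25, 6.03, 1.17, 1.01, 1.84 and 2.01. With only Xist nuclei (16 and 71) 57 genes were higher, the identity median was 0.42, the G2 and M phase median -0.055 and the ratios of Cdh9 and Slc38a1 0.060 and 1.01.

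With a marker sum of 4 or more, 61 genes were higher and 51 lower, the identity median was 0.20, the G2 and M phase median 0.016 and the ratios of Cdh9, Egfem1 and Kctd8 0.83, 1.02 and 2.37. Without members with neuronal RNA, 38 genes were higher and 36 lower among 680 with enough UMIs, the transporter median was 0.43, the G2 and M phase median 0.028 and the ratios of Ebf1, Cdh9, Cntn4, Cntnap5a, Frmd4b, Cntnap2, Usp29 and Nrg1 0.95, 0.69, 0.87, 0.52, 2.42, 1.11, 1.39 and 1.16. Without the richest nucleus of each gene, 148 genes were higher and 71 lower, the identity median was 0.70, the transporter median 0.43 and the Cdh9 ratio 0.73. Without Scrublet doublets the identity median was 0.69, the transporter median 0.58 and the Cntn4 ratio 0.86.

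At least 2000 genes per nucleus left 67 genes lower, an identity median of 0.45, a transporter median of 0.17 and 21.6% of members of the cKO-labelled library with Mki67 or Top2a. A minimum of 50 UMIs gave 330 genes higher and 276 lower and a G2 and M phase median of -0.31. The identity median was 0.68 with median-of-ratios scaling and 0.44 with nuclei weighted equally, where the transporter median was 0.44. Leaving Itih3 out of the rule gave a G2 and M phase median of 0.0072.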

Other observations

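Of the 12 genes highest in parenchymal astrocyte-like nuclei against Bergmann glia-like nuclei, 2 were noncoding. Gm48747 (chr12:70251165-70275597, plus strand, GRCm38) overlaps Trim9 on the opposite strand and was 6.61-fold and 6.90-fold higher in members than in Bergmann glia-like nuclei, with a UMI in 64.1% and 74.8% of members and in 4.26% and 7.35% of microglia-like nuclei. Gm20713 (chr14:115788144-115871278, minus strand) overlaps Gpc5 on the opposite strand and was 7.54-fold and 9.22-fold higher. Trim9 and Gpc5 themselves were among the 12 genes highest in members, and reads of such a pair may not be told apart, since strand use in the counting is not given in the sources used here.

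Gm31356 (chr19:55099502-55117815, plus strand), which overlaps Gpam, an enzyme of triglyceride synthesis, on the opposite strand, differed between the libraries. It had 8 UMIs in 8 of 39 control members and 94 UMIs in 47 of 123 members of the cKO-labelled library, or 35.3 and 158 CPM, a ratio of 4.48 (2.18 to 10.7). The richest nucleus held 5 of the 94 UMIs. The ratio was 4.39 (1.92 to 12.3) without members with neuronal RNA and ranged from 3.39 to 6.11 over 12 alternatives. It was 4.67 in Slc6a11-led and 3.53 in Aqp4-led members and 1.03 in Bergmann glia-like nuclei, and the difference between the classes was not tested.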
